A study of Pichia kudriavzevii with 6 samples.

Results

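A group of 77 of the 5464 genes of the yeast Pichia kudriavzevii was most abundant when glucose and succinic acid were supplied together. All cells were of strain CY902 with a deletion of URA3, a uracil synthesis gene that serves as a selection marker, and this deletion is shared by every group. Cells precultured for 24 hours were washed and shaken for 3 hours at 30 °C and pH 5.0 in synthetic medium with glucose at 2% w/v (SoleG), with glucose at 2% and succinic acid at 2% w/v (GS), or with succinic acid at 2% w/v and no glucose (SoleS). The pH was set with NaOH, so an effect of the base added with the acid cannot be told apart from that of succinic acid itself. RNA was sequenced from 2 libraries per medium. The study's title names the search for transporters of C4 dicarboxylic acids, the class to which succinic acid belongs. The labels do not say whether the libraries of a medium came from separate cultures, so the spread between them may be technical.

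Many yeasts use glucose in preference to other carbon sources, and while glucose is present they hold back genes for the use of organic acids. Succinic acid is an intermediate of the tricarboxylic acid cycle, and external succinate has to pass the plasma membrane before a cell can oxidise it. A gene that is high with both compounds and low with succinic acid alone therefore has a profile that differs from that of a gene held back by glucose. Genes carry IDs such as PK3316 that the files do not pair with names, and 0 of 5464 IDs matched the reference gene table of another strain. No function could be assigned to any of them, and the genes are described by ID, coding length and level.

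Members were chosen from the measured values. Counts were scaled to a library total of 1000000 (CPM), and the value of a medium was the mean CPM of its 2 libraries plus 1. Members had a GS value at least 1.5 times that of SoleG, a SoleS value between 0.125 and 0.8 of SoleG, and a GS value of at least 10. All 6 libraries entered this choice and both ratios share the SoleG libraries, so the differences between media below describe the members and are not tests of them. The gene just inside the GS/SoleG limit was PK4291 at 1.501, and the one just outside was PK3208 at 1.4996. At the lower SoleS/SoleG limit PK0664 lay inside at 0.1257 and PK2213 outside at 0.1154, and at the upper limit PK2967 lay inside at 0.798 and PK0124 outside at 0.807. PK5046 had the lowest GS value inside, 15.2, and PK3788 the highest outside, 7.76.

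Library totals were 6024768 to 6959188 counts, and a total of 3 counts, the limit that a count of 0 allows, corresponded to 0.431 to 0.498 CPM. Libraries of a medium were distinct by a chi-square averaged over genes. The squared differences of their counts were 5.69 (SoleG), 2.83 (GS) and 3.98 (SoleS) times those of sampling noise. A set of 55 genes whose SoleS value was 16 times or more their SoleG value took 26.5% and 26.8% of the counts in the SoleS libraries and 0.362% to 0.547% in the other 4. With CPM from library totals, the median gene of 5280 with enough counts to be tested stood at 0.903 in GS and 0.888 in SoleS relative to SoleG. TMM factors from edgeR, which scale libraries on the bulk of genes, brought these medians to log2 fold changes of -0.01 and -0.03. Ratios below are on the total-count scale of the rule, and log2 fold changes are on the TMM scale.

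The members rose together with succinic acid added to glucose and fell together when glucose was left out. They held 3.16% and 3.24% of all counts in the SoleG libraries, 5.44% and 5.60% in the GS libraries, and 1.49% and 1.58% in the SoleS libraries. The GS libraries were the highest and the SoleS libraries the lowest, with no overlap between media. Counts are shares of each library, so less RNA of a gene and more RNA of others, such as the 55 genes above in SoleS, cannot be told apart. Nor, in RNA pooled over cells, can less RNA of a gene per cell and fewer cells that express it. For the median member, CPM values in the SoleG libraries were 350 and 321, those in GS were 541 and 560, and those in SoleS 157 and 171. No single gene carried the group, and the most abundant member, PK5049, made up 6.43% of the member counts in each GS library. In each of the 77 genes both GS libraries lay above both SoleG libraries (21.3% of the 5280 genes tested) and both SoleS libraries lay below both SoleG libraries (51.5% of genes tested). Both held at once in the 77 and in 10.2% of genes tested. Because the rule used these libraries, nothing is read from these shares.

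**Figure D1:**
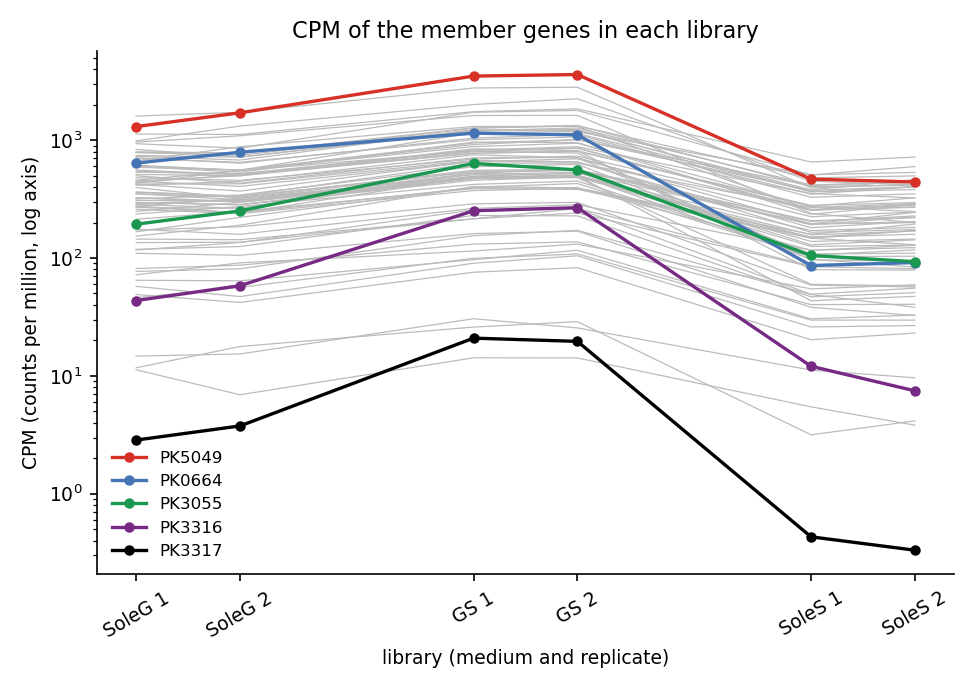
CPM of the 77 members (grey lines) in each of the 6 libraries, on a log axis, with 5 members coloured. Each line peaks in the 2 GS libraries, PK5049 being the highest there at 3497 and 3603 CPM, and is lowest in the SoleS libraries, PK3317 reaching 0.431 and 0.332 CPM.

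The rise in GS was modest for most members and the fall in SoleS varied more. The GS/SoleG ratio had a median of 1.67, with 54 genes between 1.5 and 1.75, 14 between 1.75 and 2, 6 between 2 and 2.5 and 3 above 2.5. The SoleS/SoleG ratio had a median of 0.527, with 8 genes below 0.25, 24 between 0.25 and 0.5 and 45 above 0.5. SoleS/GS, which follows from the other ratios, ran from 0.0413 to 0.468 with a median of 0.308. It was below 0.2 in 15 members and below 0.1 in 5. Across members the log2 GS/SoleG and SoleS/SoleG ratios had a Pearson r of -0.16 and a Spearman rho of 0.00 (n = 77 genes that share their libraries, SoleG in both ratios).

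**Figure D2:**
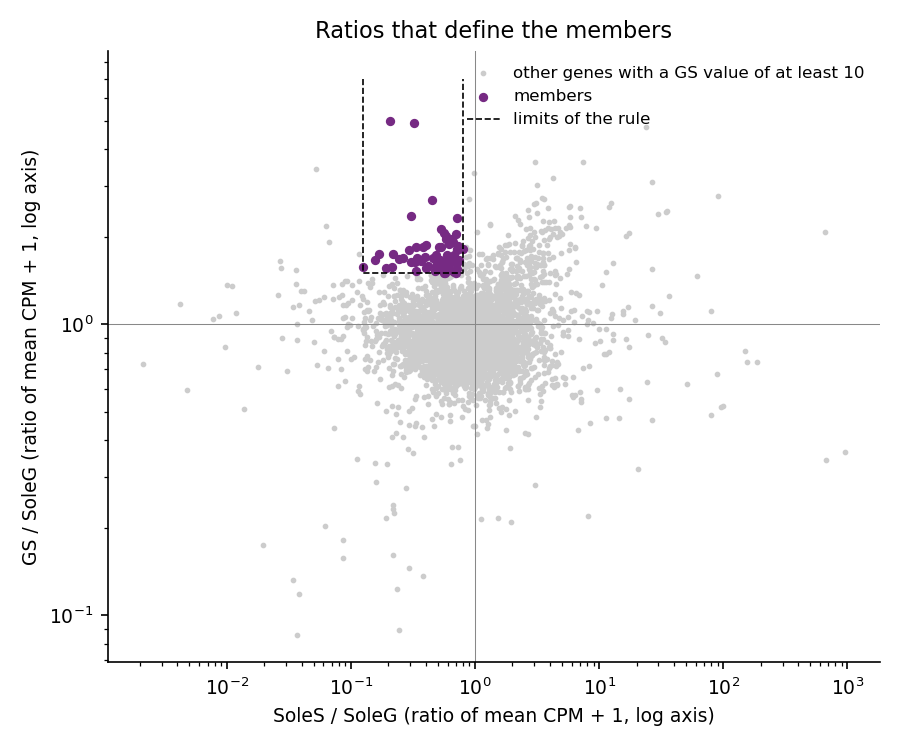
GS/SoleG against SoleS/SoleG for genes with a GS value of at least 10, both as ratios of mean CPM plus 1 on log axes. Members (purple) fill the part above 1.5 and between 0.125 and 0.8, mostly near its lower edge, while PK3316 and PK3317 stand apart near a GS/SoleG ratio of 5.02 and 4.94.

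In the model fitted to all genes, the members had a median log2 fold change of 0.88 in GS against SoleG, against -0.01 for all genes tested. The median was -0.78 in SoleS against SoleG and -1.69 in SoleS against GS, where all genes had -0.03 and 0.00. All 77 passed the filter on low counts, and the lowest count of a member in a SoleG library was 19. At an edgeR adjusted p below 0.05, 77 of 77 were higher in GS than in SoleG, a call made for 20.0% of all genes tested. Lower in SoleS than in SoleG were 76 of 77, a call made for 40.9% of all genes, and lower in SoleS than in GS were 77 of 77, beside 39.4% of all genes. These contrasts chose the members, so the counts only describe them. The gene not called was PK3295, of 1155 bases, at 14.7 and 15.3 CPM in SoleG and 11.2 and 9.63 CPM in SoleS.

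The scaling shifted both ratios. Under TMM scaling the ratio of GS to SoleG was at least 1.65 in every member. The SoleS/SoleG ratio moved from a median of 0.527 to 0.583 under TMM, with a highest value of 0.883. When those 55 genes were left out of the library totals, the median SoleS/SoleG ratio became 0.714. Of the 77 members 75 were then still below SoleG, and 23 lay at 0.8 or more and no longer met the rule.

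A choice made on 1 replicate could be read in libraries that it had not used. Applied to replicate 1 of each medium, the rule gave 71 genes, of which 57 are among the 77. In replicate 2 the order GS above SoleG above SoleS was seen in 69 of these 71 (97.2%), beside 19.2% of the 4772 genes with a GS value of at least 10 there. The median GS/SoleG ratio was 1.66 in the libraries used for the choice and 1.65 in the others, and 50 genes met the whole rule again. Applied to replicate 2, the rule gave 98 genes, and in replicate 1 the order was seen in 97 of them (99.0%), beside 17.6% of 4750 genes. Their median GS/SoleG ratio was lower in the unused libraries, 1.52 against 1.64, and 50 met the whole rule again. With 1 library per medium on each side, these are counts with no test. The genes set beside them were all those with that GS value, whatever their ratios, so the shares do not compare like with like. Genes chosen for such ratios keep the order wherever the libraries of a medium differ little, so the order is not support for the members. Since the libraries of a medium may not be separate cultures, the shares show only how values repeat between libraries. The genes that lost the order were PK2794 and PK0030 in the first reading, with GS/SoleG ratios of 0.756 and 0.777, and PK1508 in the second, at 0.683. None of these 3 is among the 77.

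**Figure D3:**
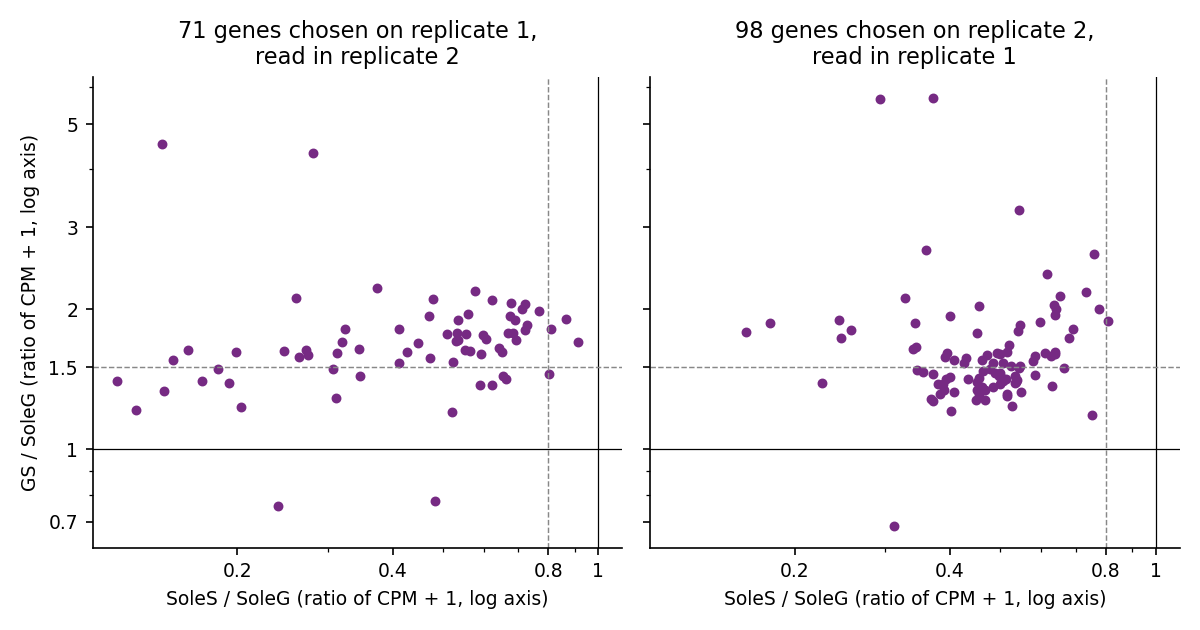
GS/SoleG against SoleS/SoleG in the libraries not used for the choice, for genes chosen on replicate 1 (left, 71 genes) and on replicate 2 (right, 98 genes), as ratios of CPM plus 1 on log axes. Solid lines mark a ratio of 1 and dashed lines the limits of 1.5 and 0.8, and 69 and 97 genes lie above 1 on the vertical axis and below 1 on the horizontal one.

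The largest rise belonged to PK3316 and PK3317, which have consecutive IDs. PK3316, of 1605 bases, was at 43.6 and 58.2 CPM in SoleG, 252 and 267 CPM in GS, and 12.1 and 7.47 CPM in SoleS. It was 5.02 times as high in GS as in SoleG and 24.2 times as high as in SoleS, with log2 fold changes of 2.49 ± 0.11 (SE) against SoleG and -4.70 ± 0.15 for SoleS against GS. PK3317, of 453 bases, was much scarcer, at 2.85 and 3.76 CPM in SoleG, 20.9 and 19.6 CPM in GS, and 0.431 and 0.332 CPM in SoleS. Its GS counts of 264 stood against 44 in SoleG and 5 in SoleS, so that the scaled count ratio was 6.13 for GS over SoleG (95% exact counting interval 4.45 to 8.65) and 52.7 for GS over SoleS (22.3 to 163.6). These intervals cover counting error only. With 1 added to each value, as in the rule, the GS/SoleG ratio of PK3317 was 4.94. Both genes were thus lower in glucose alone than in the mixed medium, and at or near the counting limit (PK3317) or close to 10 CPM (PK3316) in succinic acid alone.

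PK3055 and PK5049 followed in the size of the rise. PK3055, of 1836 bases, was at 194 and 251 CPM in SoleG, 634 and 560 CPM in GS, and 105 and 93.1 CPM in SoleS, with a log2 fold change of 1.57 ± 0.10 (SE) in GS against SoleG. PK5049, of 1248 bases, was at 1304 and 1706 CPM in SoleG, 3497 and 3603 CPM in GS, and 467 and 442 CPM in SoleS, with a log2 fold change of 1.38 ± 0.10 in GS against SoleG. The SoleG libraries of PK5049 differed by more than its GS libraries did. As in each of the 77 members, no library of one medium overlapped another medium.

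Most members were abundant transcripts in every medium. Per length (counts per kilobase of coding sequence per 1000000 counts, computed from each library's own total), the median level of the members was 640 in SoleG, 1105 in GS and 313 in SoleS, while the median of all genes was 45.7, 40.6 and 40.2. In GS 57 of the 77 were among the top 10% of all genes by this level, and in SoleS, where they were lowest, 39 still were. The rule asked only for a GS value of 10, a level far below that of most members. The range was wide: 4 members had a mean below 50 CPM in GS, 29 lay between 50 and 500, 27 between 500 and 1000, and 17 above 1000.

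The highest levels per length in GS were those of PK2895, PK5323, PK5049 and PK3715. PK2895, of 348 bases, had length-scaled levels of 1761 and 1596 with glucose alone, 3317 and 3274 in the mixed medium, and 1049 and 1151 with succinic acid alone. PK5323, of 615 bases, went from 1517 and 1389 (SoleG) to 2806 and 2906 (GS), with 827 and 866 in SoleS, on the same length-scaled level. Both had nearly the same rise, with GS/SoleG ratios of 1.96 for PK2895 and PK5323 alike, and their SoleS/SoleG ratios were 0.656 and 0.583. PK5049 reached a length-scaled level of 2802 and 2887 in GS and 374 and 354 in SoleS, so it ranked among the highest in the mixed medium and fell further than PK2895 or PK5323 without glucose. PK3715, of 522 bases, had 1419 and 1376 (SoleG), 2286 and 2357 (GS), and 698 and 730 (SoleS) on the same scale. In all 4 genes each GS library exceeded each SoleG library, and each SoleS library was below them. The rule used these libraries, and this order held in all 77 members and in 10.2% of genes tested.

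The lowest SoleS/SoleG ratios of the rule, in which 1 is added to each value, were those of PK0664, PK5069, PK3666 and PK0663. Without the added 1 the scarce PK3317 fell further than its ratio shows, on 44 counts in SoleG and 5 in SoleS. Its log2 fold change was -2.89 ± 0.56 (SE) in SoleS against SoleG. On the total-count scale its count ratio was 8.59 for SoleG over SoleS (exact counting interval 3.41 to 27.7). With no value added, its SoleS/SoleG ratio thus lay below the lower limit of 0.125, and the counting interval spans that limit. On this scale PK3317 is a member only through the added value. PK0664, of 603 bases, was at 639 and 790 CPM in SoleG, 1147 and 1109 CPM in GS, and 86.4 and 91.5 CPM in SoleS. PK0664 had a SoleS/SoleG ratio of 0.126 and a log2 fold change of -2.86 ± 0.10 (SE) in SoleS against SoleG. PK0663, with the preceding ID and 555 bases, was at 458 and 553 CPM in SoleG, 808 and 777 CPM in GS, and 96.7 and 93.6 CPM in SoleS (log2 fold change -2.26 ± 0.09 in SoleS against SoleG). These neighbours in ID had GS/SoleG ratios of 1.58 and 1.57 and nearly equal SoleS levels in CPM. PK5069, of 1551 bases, was at 275 and 321 CPM in SoleG, 492 and 499 CPM in GS, and 43.4 and 47.3 CPM in SoleS. PK3666, of 1491 bases, was at 450 and 498 CPM in SoleG, 844 and 815 CPM in GS, and 79.8 and 79.0 CPM in SoleS. In these 4 genes the level in the mixed medium was 8.25 to 12.6 times that in succinic acid alone.

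Members were shorter than most genes. Their coding length had a median of 735 bases and ran from 171 to 4134, against a median of 1215 over all genes and of 1419 over the 2081 genes that met the SoleS/SoleG and GS limits but had a GS/SoleG ratio below 1.5. Of the members 42 (54.5%) had at most 900 bases, against 34.1% of all genes and 26.0% of those 2081. Among genes with a mean of at least 300 CPM in GS, 58.6% of 58 members and 32.3% of all 560 genes had at most 900 bases. Length was not used by the rule, and genes are not replicates, so these shares carry no test.

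Short and long members had similar rises in GS. The 42 members of at most 900 bases had a median GS/SoleG ratio of 1.64 and the 35 longer ones 1.69. The median SoleS/SoleG ratio was 0.558 in the short and 0.417 in the long members, and a ratio below 0.5 was found in 11 of 42 and 21 of 35. Across members the log2 SoleS/SoleG ratio had a Pearson r of -0.25 and a Spearman rho of -0.26 with log2 coding length (n = 77 genes), and -0.08 and -0.12 over all 5464 genes. The median of the mean CPM in GS was 648 for the short and 486 for the long members. Per length the medians were 1398 and 321, a gap that dividing by length widens. Among the short genes PK0663 and PK0664 held the only 2 ratios below 0.25, while PK3317 stood at 0.321 with the added 1.

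**Figure D4:**
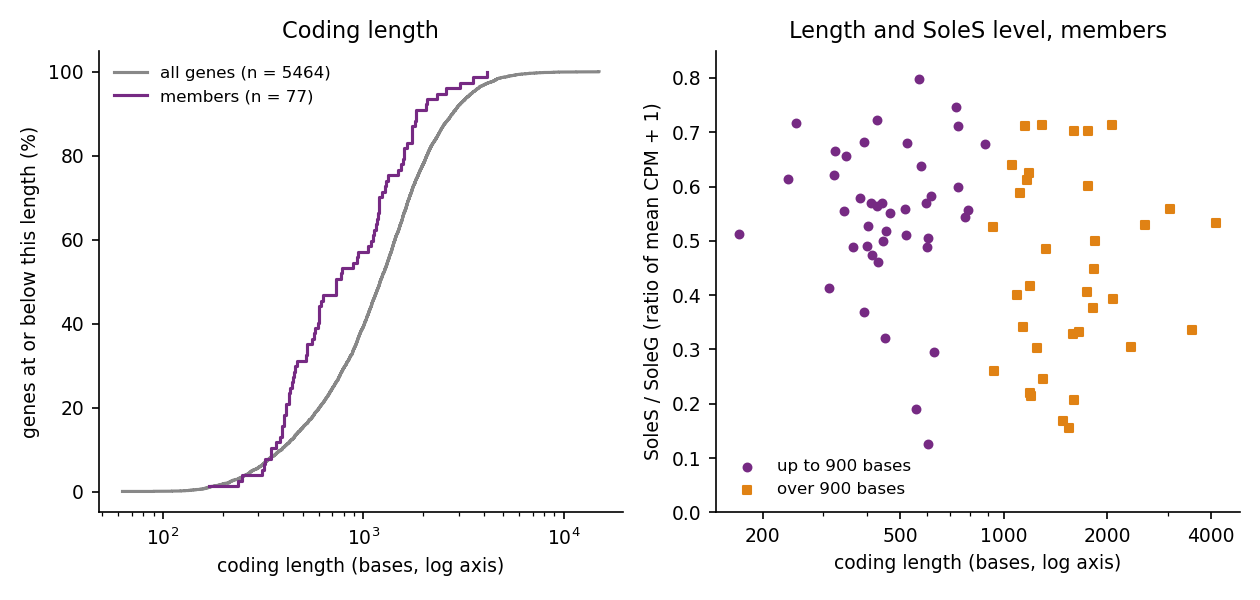
Left, share of genes at or below each coding length for all 5464 genes and the 77 members, on a log axis. Right, SoleS/SoleG ratio of each member against its coding length, where most members of at most 900 bases lie around the median of 0.558 and longer ones spread lower around 0.417.

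Several members had neighbouring IDs. Of the 77, 14 (18.2%) belonged to runs of consecutive IDs, 2 runs of 3 and 4 of 2, while 149 of all 5464 IDs (2.73%) were next to a member. Allowing a gap of 1 ID, 19 members (24.7%) fell into 8 runs, beside 5.20% of all IDs that lay as near to a member. The files do not state that ID order is genome order, nor the strand of any gene, and reads shared by adjacent or similar genes may have been split between them. Whether this added to the likeness of neighbours was not tested.

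The first run of 3 was PK3548, PK3549 and PK3550, which are short genes of 321, 594 and 456 bases. PK3548 was at 272 and 241 CPM in SoleG, 489 and 484 CPM in GS, and 147 and 171 CPM in SoleS. PK3549 was at 512 and 499 CPM in SoleG, 774 and 801 CPM in GS, and 280 and 296 CPM in SoleS. PK3550 was at 535 and 520 CPM in SoleG, 820 and 851 CPM in GS, and 258 and 287 CPM in SoleS. The 3 profiles were close to each other, with SoleS/SoleG ratios of 0.621, 0.570 and 0.518.

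The second run was PK3898, PK3899 and PK3900, which are similar in length at 1602, 1749 and 1812 bases and differ widely in level. PK3898 was at 72.1 and 91.0 CPM in SoleG, 115 and 131 CPM in GS, and 54.7 and 59.3 CPM in SoleS. PK3899 was at 119 and 125 CPM in SoleG, 230 and 228 CPM in GS, and 46.8 and 50.8 CPM in SoleS. PK3900 was at 985 and 1317 CPM in SoleG, 2006 and 2244 CPM in GS, and 448 and 419 CPM in SoleS. PK3899 and PK3900 had like ratios (GS/SoleG 1.87 and 1.84, SoleS/SoleG 0.406 and 0.377), whereas PK3898 was just inside the limit of the rule at 1.501. The fall of PK3898 in SoleS against SoleG rested on SoleG replicate 2, without which its log2 fold change went from -0.37 to -0.17 (edgeR adjusted p = 0.189).

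**Figure D5:**
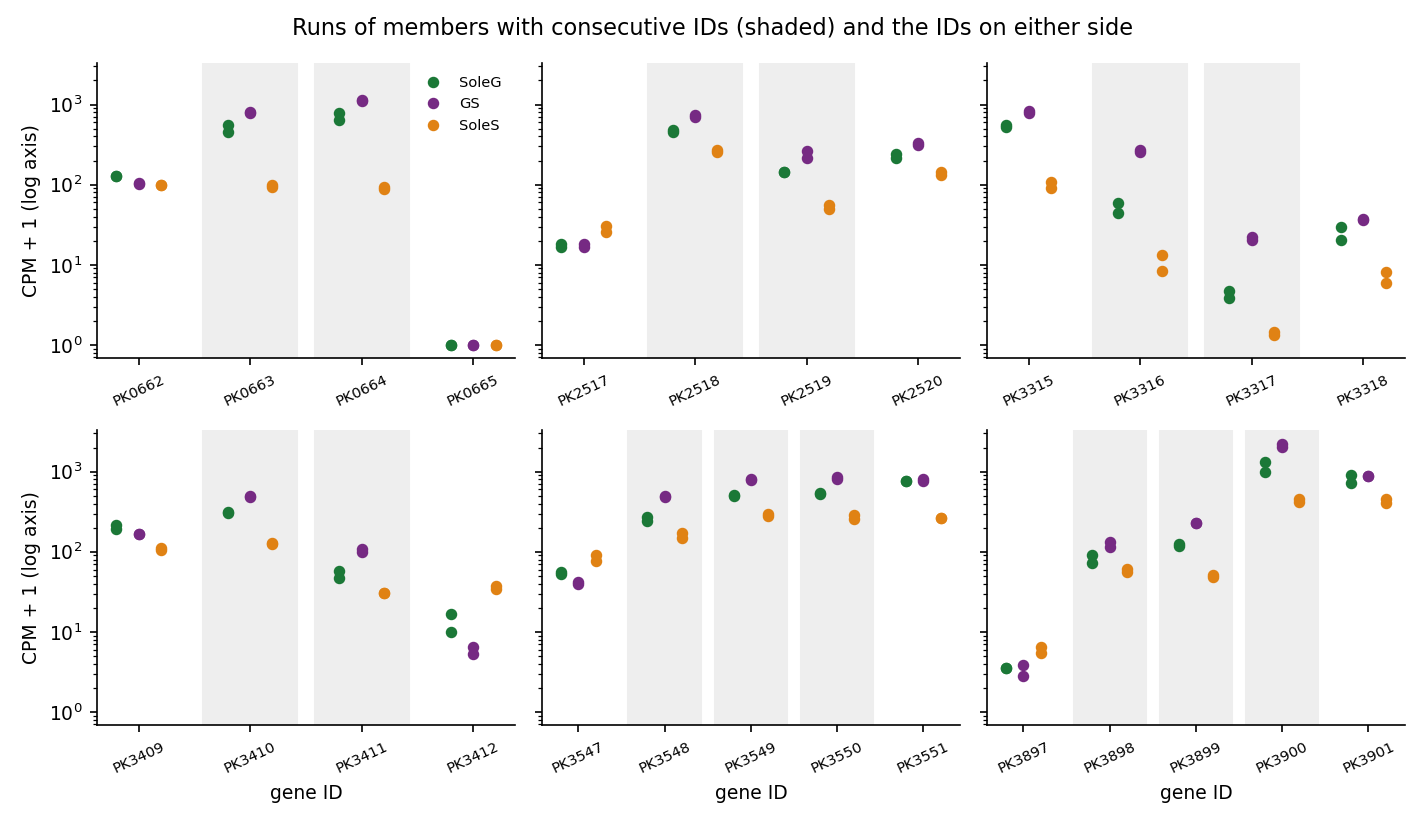
CPM plus 1 on a log axis for the 6 runs of members with consecutive IDs (shaded) and the ID on either side of each, with 1 point per library coloured by medium. In shaded genes GS is highest and SoleS lowest, as in PK3316 at 252 and 267 CPM in GS, while several flanking genes have another order, as PK3547 and PK3412.

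Replicates of the members lay closest together in the mixed medium. The median difference between the 2 libraries of a medium was 0.06 on the log2 scale in GS, 0.13 in SoleG and 0.11 in SoleS, beside 0.10, 0.11 and 0.10 over 4990 genes with at least the mean CPM of the lowest member. Those genes were not matched to the members in level, and whether the smaller gap in GS goes with the higher level of the members was not tested. The widest gaps were those of PK5046 in SoleG, 1.55-fold, of PK3316 in SoleS, 1.54-fold, and of PK2519 in GS, 1.22-fold. Replicate 1 was the higher in 44 of 77 members in SoleG, in 20 in GS and in 21 in SoleS. Over the same 4990 genes it was the higher in 2958 in SoleG, 2332 in GS and 2351 in SoleS.

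The other 60 members had GS/SoleG ratios from 1.5 to 2.32 with a median of 1.66 and SoleS/SoleG ratios from 0.214 to 0.798 with a median of 0.548. Their coding lengths ran from 171 to 4134 bases, and their mean levels per length in GS from 24.3 to 2218.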

How the data were processed

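The authors deposited 1 table per library that lists, per the file headers, count, FPKM and coding length of each gene. The submitters' processing notes list Bowtie2 2.2.5. How reads were counted, on which strand, build and annotation, is not given in the sources used here. The deposited counts are whole numbers and were used for all results. The FPKM values deposited by the authors follow from count, coding length and library total, except in GS replicate 2, where the total of GS replicate 1 (6744749) was used in place of 6269038, which makes its values 0.929 times too low. They entered 1 alternative only. Levels per length were recomputed from each library's own total.

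The model across genes was edgeR 4.0.16 in R 4.3.3 (filterByExpr, 5280 genes kept, TMM factors, glmQLFit and glmQLFTest, 1 fit to 6 libraries, Benjamini-Hochberg adjustment within a comparison). It was run on simulated data without a shift in library composition as large as that in SoleS, so the simulation did not test the scaling under such a shift. SE values are the absolute log2 fold change over the root of F. An exact test of 2 against 2 libraries cannot go below p = 0.333. Alternatives were DESeq2 1.42.0, RLE, upper-quartile and total-count scaling, other filters, a replicate block, fits to 2 groups, libraries left out and other settings of the rule. The members, lists and tests were chosen with earlier results of these data known. Named genes were the 4 members highest in GS/SoleG, the 4 highest per length in GS, the 4 lowest in SoleS/SoleG and the longest runs of consecutive IDs, 17 genes in all, with the genes next to each limit of the rule. Other IDs were named after their values were seen: PK3295, PK2794, PK0030, PK1508, PK2519, PK3547, PK3412 and those under the other observations. URA3 could not be looked up without gene names, and no sequences were printed.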

Additional observations from a re-analysis of the deposited data

How the results depend on the processing

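The number of genes that met the rule was 77 and rose to 133 under TMM scaling and 133 under RLE scaling, which keep 75 and 70 of the 77, and was 9 with a GS/SoleG limit of 2. With a library left out it was 75 to 100, highest without SoleG replicate 1. In the other settings of the rule it was 56 (totals without the genes 16-fold higher in SoleS, a setting added after the data were seen) to 114 (upper-quartile scaling). It was 71 and 98 on replicate 1 or 2 alone. On the deposited FPKM values, which used another library's total for GS replicate 2, it was 64. With FPKM from each library's own total, also added later, it was 77, of which 76 were members. The median log2 fold change of the members moved from 0.88 to 0.74 in GS against SoleG with total counts, another setting added later, from -0.78 to -0.93 (total counts) and -0.66 (upper-quartile factors) in SoleS against SoleG, and from -1.69 to -1.56 (upper-quartile factors) in SoleS against GS. Total counts put the median of all genes at -0.15 and -0.18 in the comparisons with SoleG. Upper-quartile factors put it at 0.09 in SoleS against SoleG and 0.14 in SoleS against GS. The members thus shifted in the same direction as all genes. Members called in the 3 comparisons were 76 to 77, 74 to 77 and 77 over all settings, DESeq2 giving 77, 75 and 77. The replicate block gave 77, 76 and 77 members called. These contrasts chose the members, named genes included, and every setting reuses the same counts. The counts of members called and the fold changes of named genes below thus describe the settings and are not support for the members. No deviation shared by same-numbered libraries was seen: the deviations of replicate 1 from replicate 2 had correlations of -0.03, -0.09 and 0.04 across media. These values cannot tell whether such libraries were prepared as pairs. Of 714 fold changes of named genes recomputed under an alternative, 713 kept their direction and side of the threshold. The exception was PK3898 in SoleS against SoleG without SoleG replicate 2, where the edgeR adjusted p was 0.189, against at most 0.0467 in its other settings. No member held over 10% of the member counts, so the planned removal of such genes left the shares at 3.20%, 5.52% and 1.54%. The median coding length was 696 bases with TMM scaling of the rule. Genes chosen on 1 replicate kept the order of media in the other for 97.6% and 97.7% under TMM scaling, a setting added after the data were seen. Depth limits PK3317, with 5 counts in SoleS.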

Other observations

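IDs next to a member that were not members themselves had a raised GS/SoleG ratio more often than other genes, as a count with no test. Of 117 such genes with a GS value of at least 10, 25 (21.4%) had a GS/SoleG ratio of at least 1.25, against 464 (10.1%) of 4572 other non-members. Their median GS/SoleG ratio was 0.955 against 0.902, so most of them were not raised in GS. The median SoleS/SoleG ratio was nearly the same in both sets, 0.846 against 0.850. The order GS above SoleG above SoleS was seen in 26 (22.2%) and in 748 (16.4%).

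The IDs on both sides of PK3316 and PK3317 had the same order of media and missed the rule narrowly. PK3315, of 696 bases, was at 526 and 562 CPM in SoleG, 826 and 782 CPM in GS, and 89.7 and 108 CPM in SoleS, a GS/SoleG ratio of 1.48. PK3318, of 1575 bases, was at 19.5 and 28.4 CPM in SoleG, 36.3 and 35.3 CPM in GS, and 7.18 and 4.98 CPM in SoleS, a GS/SoleG ratio of 1.47. In this stretch of 4 IDs the GS libraries were above the SoleG libraries and the SoleS libraries were lowest in each gene. The rule chose PK3316 and PK3317 for this order, so only the flanking IDs had it without being chosen for it. PK2520, after the pair PK2518 and PK2519, also fell just short, with a GS/SoleG ratio of 1.44 and a SoleS/SoleG ratio of 0.605. By contrast PK3056, between the members PK3055 and PK3057, was highest in SoleS at 91.5 and 93.1 CPM, against 51.5 and 51.5 CPM in GS and 50.9 and 48.6 CPM in SoleG. PK3412, after PK3410 and PK3411, was lowest in GS at 5.49 and 4.31 CPM and highest in SoleS at 33.2 and 36.5 CPM.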
